A study of Mus musculus with 9 samples.

Results

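The 35 genes described here are a named set of mouse antiviral genes that type I interferons induce, from RNA sensors and the transcription factor Irf7 to the Ifit, Oas and Mx effectors. They were chosen by name, with earlier results of these data known, and matched to the deposited count table by symbol. All 35 were found among its 55359 genes, and all 35 were among the 17123 genes that passed a filter on low counts and were tested. No member therefore had to be set aside, and a count over the members is a count over the whole set.

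RNA was sequenced from the omentum, a fatty fold of the peritoneum, of C57BL/6 mice that were 7 to 10 weeks old. Every mouse carried tumours of B16-OVA, a mouse melanoma line that makes the model antigen ovalbumin, after 500000 cells were put into the peritoneal cavity on day 0. On day 6 the mice received PBS, a saline solution without cells (libraries 1, 2 and 3), or T lymphocytes of the ovalbumin-specific OT-I type, electroporated with mRNA for the cytokine IL-12. These cells were given intraperitoneally (IP, libraries 2, 3 and 4) or intravenously (IV, libraries 1, 2 and 4), and the omenta were taken 18 h after treatment. The route of the PBS injection is not given in the titles. All groups carried tumours. T cells lacking the IL-12 mRNA were given in no group analysed here, and the cells and the cytokine cannot be told apart. Values per library are given below in the order of the library numbers above, as CPM (counts per 1e+06 counts of a library) scaled by TMM, a normalization that assumes most genes are unchanged. Fold changes are log2 ± standard error, from 1 edgeR quasi-likelihood fit over the 9 libraries. A gene is said to have risen or fallen where the Benjamini-Hochberg adjusted p over all genes tested was under 0.05. These p-values rest on 1 estimate of spread per gene, shared by the 3 groups of 3 mice. A comparison of 2 groups thus also carries the spread within the remaining group.

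Type I interferons, the interferon-alpha and interferon-beta proteins, bind a receptor made of IFNAR1 and IFNAR2 that nearly all nucleated cells carry. The kinases JAK1 and TYK2 then activate transcription factors, STAT2 among them, which join IRF9 and bind a DNA element called the interferon-stimulated response element (ISRE). Interferon-gamma, a product of activated T and NK cells, signals through another receptor to factors that bind the gamma-activated sequence (GAS), and many antiviral genes respond to both kinds of interferon.

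To show how the element lies in the genes themselves, promoter windows from RefSeq on GRCm38.p6 were searched, from 250 bases before to 50 bases after each annotated gene start. The letters searched were GAAANNGAAA for the ISRE and TTCNNNGAA for the GAS, where N is any base, on both strands, and the motifs may overlap each other. A window was matched for 26 of the 35 members and not for Tor3a, Mx1, Usp18, Oas2, Parp9, Mx2, Rtp4, Parp14 and Dhx58. Of the 26, 14 (53.8%) held an ISRE match, against 474 of 12028 tested genes with a window (3.94%) and 1079 of 27025 genes in all (3.99%). A GAS match was found in 6 of the 26 (23.1%), against 8.50% of the tested genes with a window. In 10 members an ISRE match lay wholly before the gene start. The stretches below are 5 of these windows' parts, read along the gene's strand with the ISRE matches in capitals: Isg15 with its run of 3 overlapping matches, Oas3, which had the largest change after IP treatment, Bst2, which differed least between the routes, and the neighbours Ifit3 and Ifit3b.
Isg15, chr4:156200860-156200911, minus strand: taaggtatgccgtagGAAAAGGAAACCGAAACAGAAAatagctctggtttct
Oas3, chr5:120777710-120777749, minus strand: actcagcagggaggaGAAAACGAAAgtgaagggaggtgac
Bst2, chr8:71537572-71537617, minus strand: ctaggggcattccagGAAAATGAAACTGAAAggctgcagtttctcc
Ifit3, chr19:34583358-34583431, plus strand: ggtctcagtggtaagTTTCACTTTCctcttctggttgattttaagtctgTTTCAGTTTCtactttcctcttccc
Ifit3b, chr19:34607754-34607827, plus strand: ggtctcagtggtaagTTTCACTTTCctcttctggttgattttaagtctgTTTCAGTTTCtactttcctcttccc
The 74 bases of Ifit3 and Ifit3b are the same, with both matches on the opposite strand to the gene, and they lie at different distances from the gene starts. The map of motif matches shows all members that held one.

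**Figure D1:**
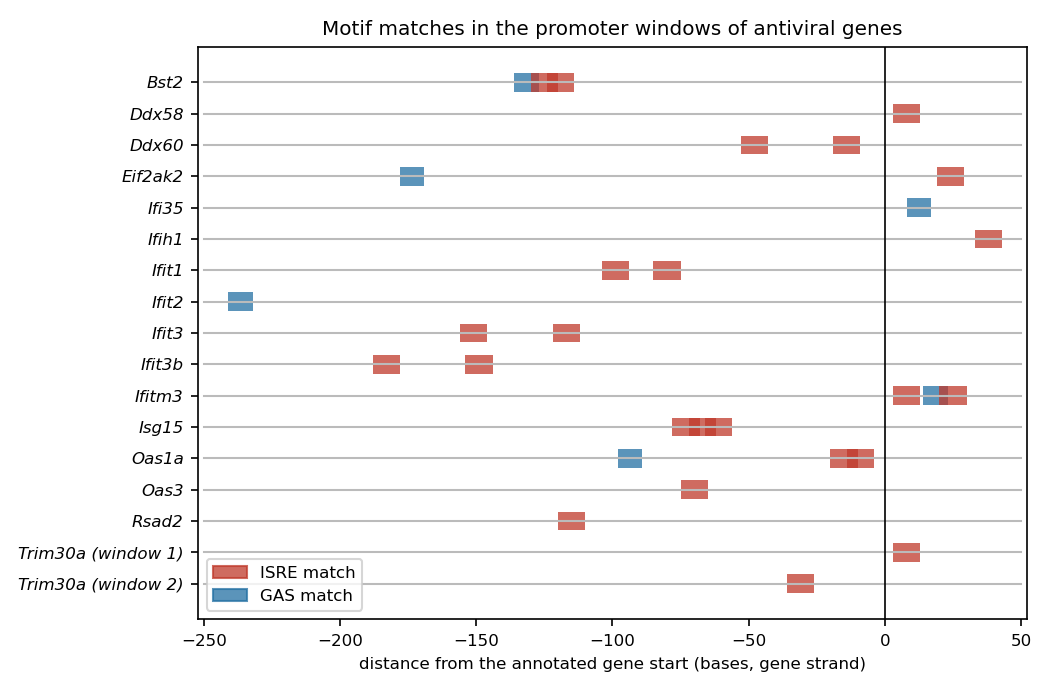
ISRE matches (red) and GAS matches (blue) in the promoter windows of the members that held a match, by distance in bases from the annotated gene start on the gene's strand, with the start at 0. Of the 14 members with an ISRE match, 10 have one wholly before the start, and Trim30a has 2 windows.

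Library totals ran from 7379798 counts (IV 2) to 44626843 (PBS 3), which sets the counting error of each. IV 4 stood apart from its group: over all genes tested, its log2 CPM correlated more closely with PBS 3 (Pearson's r = 0.9815) than with IV 1 (0.9484) or IV 2 (0.9531). For the members it did not sit with the PBS libraries, since their summed level was 0.846% of the scaled counts in IV 4 and 0.365% in PBS 3. Where leaving out IV 4 ended or added a call of a gene named below, the text says so. Adipocyte markers (7 genes, summed level 244 to 834 CPM), mesothelial markers (6 genes, 110.1 to 186 CPM) and melanoma markers (7 genes, 13441 to 28131 CPM) were above 0 in every library. The labelled tissue and tumour were thus both represented.

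Both routes went with a higher level of the whole antiviral set. Summed over the 35 genes, they took 0.194%, 0.329% and 0.365% of the scaled counts in PBS, 1.49%, 1.58% and 1.34% after IP treatment and 0.961%, 0.876% and 0.846% after IV treatment. The 3 groups did not overlap, with the IP libraries highest and the IV libraries between them and PBS. Against PBS, 35 of 35 members rose in IP and none fell, where 18.7% of all genes tested rose and 14.2% fell. In IV 35 of 35 rose and none fell as well, against 10.4% and 5.66% of all genes. Every IP library lay above every PBS library for 35 members (28.4% of all genes), and so did every IV library (16.5% of all genes). The median change of the members was 2.55 on the log2 scale in IP (from 1.01 for Eif2ak2 to 4.05 for Oas3) and 1.70 in IV (from 0.62 for Eif2ak2 to 2.75 for Ifi44), while the median over all genes tested was 0.02 and 0.04. In IP, 24 members were at least 4-fold above PBS and 10 at least 8-fold, and in IV 8 and 0. All 35 calls of IP against PBS held under each of the 19 alternative settings, including without PBS 3 and IV 4. For IV against PBS, 29 of the 35 did, and 34 held without IV 4.

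**Figure D2:**
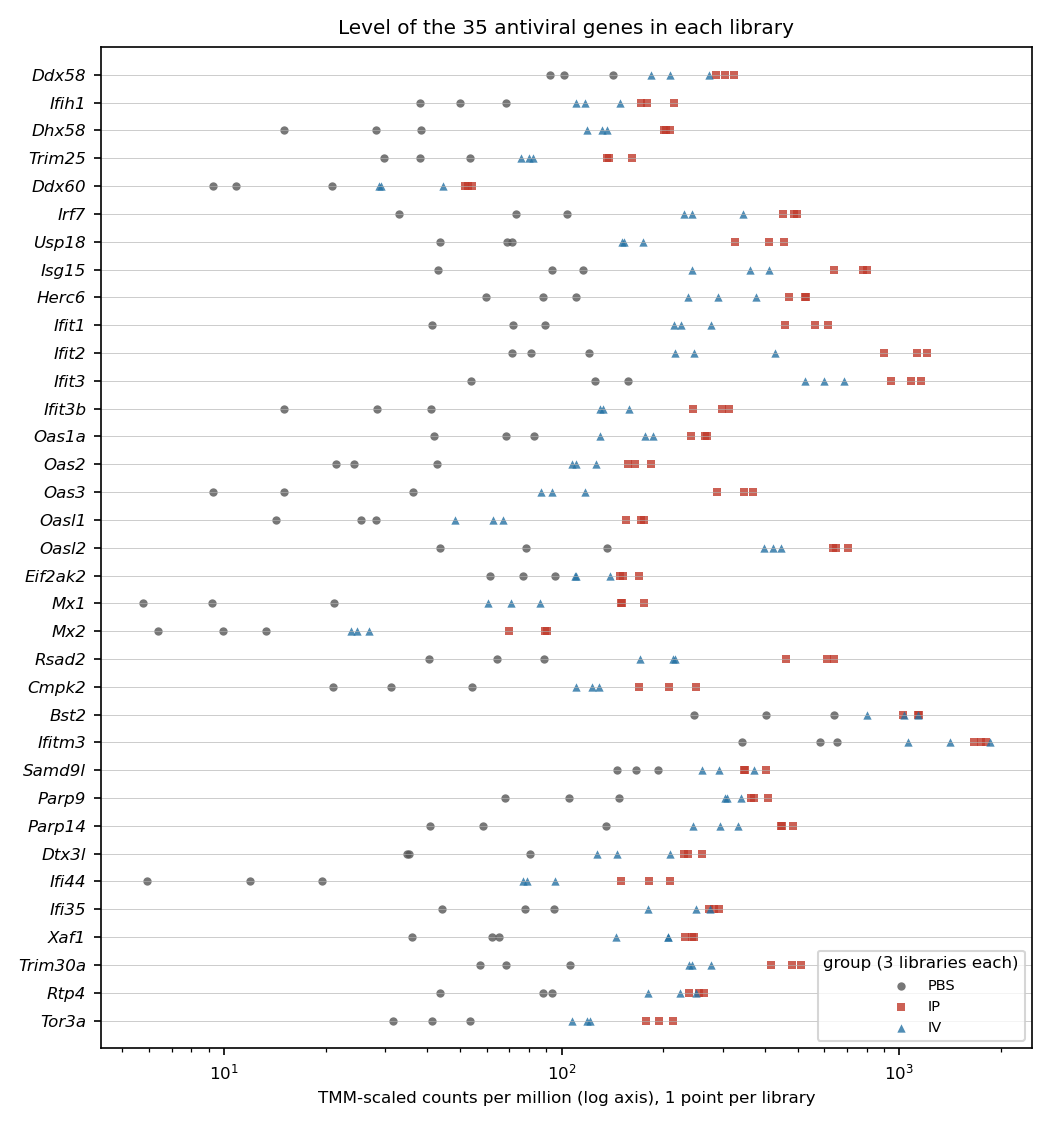
Level of each member in each library, as TMM-scaled CPM on a log axis, with 1 point per library and 3 libraries per group, ordered by role. The IP (red) and IV (blue) points lie to the right of all PBS (grey) points for all 35 genes.

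The PBS mice themselves differed in this set. PBS 1 was the lowest of its group for 33 of 35 members and PBS 3 the highest for 29. In IP, library 4 was the lowest for 29 and library 3 the highest for 28, while the IV libraries had no such order (IV 4 was lowest for 15 and highest for 14). The coefficient of variation of a member's CPM had a median of 36.4% in PBS, 8.12% in IP and 16.3% in IV. Leaving out 1 PBS mouse moved the size of the changes, and the members' median in IP against PBS was 2.32 without PBS 1 and 2.88 without PBS 3. Per kilobase of exon, the most abundant members in PBS were Ifitm3 (775 mean CPM per kb), Bst2 (477) and Isg15 (111), and the least abundant were Ddx60 (1.57) and Ifi44 (2.03). The same 3 genes led in IP, at 2564, 1222 and 982 mean CPM per kb, and Ddx60 was again lowest (6.09).

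The sensing genes had the smallest median change of the roles, 1.85 in IP and 1.26 in IV. They are the RNA helicase sensors Ddx58 (RIG-I) and Ifih1 (MDA5), their relative Dhx58 (LGP2), Ddx60, an antiviral helicase, and Trim25, a ubiquitin ligase that acts on RIG-I. Ddx58 was at 92.4, 102 and 142 CPM in PBS, 305, 324 and 286 in IP and 209, 184 and 273 in IV. It rose by 1.45 ± 0.19 in IP (adjusted p = 0.000267) and 0.99 ± 0.19 in IV (adjusted p = 0.00824), with no overlap between groups. Dhx58 stood out from the other sensors: it was at 15.05, 28.1 and 38.4 CPM in PBS, 201, 209 and 204 in IP and 136, 119 and 132 in IV. Its change was 2.91 ± 0.28 in IP and 2.25 ± 0.27 in IV (adjusted p = 4.13e-05 and 0.00182), larger than that of the other 4. Ifih1 rose by 1.85 ± 0.21 and 1.26 ± 0.21. Trim25 was at 29.7, 38.2 and 53.6 CPM in PBS, 161, 138 and 137 in IP and 75.8, 82.2 and 80.2 in IV with no overlap, and it rose by 1.84 ± 0.19 and 0.97 ± 0.19 (adjusted p = 6.55e-05 and 0.00826). Ddx60 had the lowest level per kilobase, and its rise in IV (1.32 ± 0.28, adjusted p = 0.0128) was not called without PBS 1, without PBS 2 or without the filter on low counts.

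The 4 regulators and genes of the ISG15 system had a median change of 2.74 in IP and 1.88 in IV. Irf7, the transcription factor that drives the genes of most interferon-alpha subtypes, was at 33.0, 73.5 and 104 CPM in PBS, 497, 486 and 451 in IP and 229.8, 345 and 244 in IV. Its change was 2.77 ± 0.35 in IP (adjusted p = 0.000184) and 1.96 ± 0.34 in IV (adjusted p = 0.00501). Isg15 codes for a ubiquitin-like protein that is joined to other proteins, Herc6 for the ligase that joins it in mice, and Usp18 for the protease that removes it and also restrains signalling at the interferon receptor. Isg15 was at 43.0, 115 and 93.8 CPM in PBS, 781, 805 and 641 in IP and 412, 361 and 243 in IV, a rise of 3.14 ± 0.34 (adjusted p = 8.14e-05) and 2.01 ± 0.33 (adjusted p = 0.0039). Usp18 was at 43.8, 69.0 and 71.1 CPM in PBS, 410.4, 457 and 327 in IP and 174, 151 and 153 in IV. Its 3 groups were widely apart, with changes of 2.7 ± 0.21 and 1.38 ± 0.20 (adjusted p = 2.45e-05 and 0.0028). Herc6 rose by 2.56 ± 0.24 in IP and 1.80 ± 0.23 in IV.

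The 10 effectors that act on RNA or its translation had the largest median change, 2.98 in IP and 1.89 in IV. The Ifit genes code for proteins that act, alone or together, on viral RNA and its translation. Ifit1 was at 41.2, 71.9 and 89.3 CPM in PBS, 564, 616 and 458 in IP and 278, 226 and 214 in IV. Ifit2 was at 71.2, 81.4 and 121 CPM in PBS, 1129.7, 1210.3 and 899 in IP and 246, 216 and 429 in IV, with IV 4 the highest of its group. Ifit3 was at 54.0, 125 and 157 CPM in PBS, 1080.2, 1161 and 947 in IP and 684, 600.2 and 525 in IV. None of the 3 genes had overlapping groups, and against PBS they rose by 3.02 ± 0.27, 3.57 ± 0.30 and 3.25 ± 0.33 in IP and by 1.83 ± 0.26, 1.71 ± 0.28 and 2.43 ± 0.32 in IV (adjusted p of 2.89e-05 to 6.13e-05 and 0.00208 to 0.00419). Ifit3b, a near copy of Ifit3 whose reads the counting may have split, rose by 3.34 ± 0.31 and 2.31 ± 0.30. The Oas genes code for enzymes that, once bound to double-stranded RNA, make a messenger that switches on an RNA-cutting enzyme, and Oasl1 and Oasl2 are relatives. Oas3 was at 9.26, 15.01 and 36.3 CPM in PBS, 347, 368 and 288 in IP and 93.6, 86.7 and 118 in IV. This was the largest rise of the set in IP, 4.05 ± 0.43 (adjusted p = 7.55e-05), against 2.29 ± 0.40 in IV (adjusted p = 0.00526). Oas1a and Oas2 moved less, by 2.01 ± 0.23 and 2.51 ± 0.23 in IP and 1.35 ± 0.23 and 1.95 ± 0.23 in IV. Reads of Oas1a may be split with its close copies. Oasl1 was at 14.2, 25.4 and 28.2 CPM in PBS, 172, 175 and 155 in IP and 67.0, 62.8 and 48.4 in IV, and Oasl2 rose by 2.95 ± 0.33 and 2.30 ± 0.32.

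Eif2ak2 codes for PKR, the kinase that halts translation when it meets double-stranded RNA, and it moved least. It was at 76.7, 61.3 and 95.8 CPM in PBS, 152, 169.5 and 149 in IP and 111, 109 and 139 in IV, so that the lowest IV library was only a little above the highest PBS library. The rise was 1.01 ± 0.17 in IP (adjusted p = 0.00112) and 0.62 ± 0.17 in IV (adjusted p = 0.0323), and the latter was called in 7 of the 19 alternatives, with adjusted p from 0.0112 to 0.125. Leaving out any single library other than PBS 3 ended that call.

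Among the other effectors, Mx1 and Mx2 belong to a family of dynamin-like GTPases that can block viruses in the cell. RNA levels do not show whether these mice made a working Mx protein. Mx1 was at 5.76, 9.21 and 21.2 CPM in PBS, 150.1, 175 and 151 in IP and 71.0, 86.3 and 60.5 in IV. Mx2 was at 6.39, 9.90 and 13.3 CPM in PBS, 89.2, 90.5 and 69.7 in IP and 26.9, 24.8 and 23.9 in IV. Both had separate groups, but Mx1 rose by 3.71 ± 0.40 and 2.58 ± 0.38, and Mx2 by 3.07 ± 0.24 and 1.35 ± 0.23 (adjusted p = 8.12e-05, 0.00298, 2.45e-05 and 0.00474). Rsad2 codes for viperin, an enzyme that makes a chain-ending nucleotide, and its neighbour Cmpk2 for a mitochondrial nucleotide kinase. Rsad2 was at 40.3, 64.4 and 88.6 CPM in PBS, 612, 641 and 462 in IP and 217, 170.5 and 213 in IV, a rise of 3.15 ± 0.27 and 1.64 ± 0.26 (adjusted p = 3.21e-05 and 0.00356). Cmpk2 rose by 2.55 ± 0.30 and 1.76 ± 0.29. Samd9l, a growth and virus restriction factor, rose by 1.12 ± 0.17 and 0.87 ± 0.16.

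Bst2 and Ifitm3, whose proteins sit in membranes and hold back the release or the entry of viruses, behaved alike in that at least 1 IV library reached the IP range. The same was so for Ifi35, Rtp4 and Samd9l. Bst2 was at 247, 643 and 403 CPM in PBS, 1147, 1139.8 and 1025 in IP and 1138, 1030.0 and 800.5 in IV. Ifitm3 was at 341, 653 and 583 CPM in PBS, 1749, 1804 and 1663 in IP and 1852, 1414 and 1060.2 in IV. IP and IV overlapped for both, with IV 1 above or among the IP libraries, and neither overlapped with PBS. They rose by 1.36 ± 0.29 and 1.73 ± 0.26 in IP and by 1.20 ± 0.29 and 1.46 ± 0.25 in IV (adjusted p = 0.0195 for Bst2 in IV). That Bst2 call was lost without IV 1, without IV 2, and without PBS 3 and IV 4 together.

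Parp9, Parp14 and Dtx3l, members or a partner of the ADP-ribosyltransferase family, lie next to each other on chromosome 16. They rose by 1.83 ± 0.24, 2.55 ± 0.37 and 2.27 ± 0.32 in IP and by 1.57 ± 0.23, 1.89 ± 0.36 and 1.68 ± 0.31 in IV. Parp14 had a wide PBS range, from 40.6 CPM in PBS 1 to 136 in PBS 3. Parp9 and Dtx3l share 458 exonic bases on opposite strands, so that without knowledge of the strand setting some of their reads cannot be told apart. The last 6 members are Ifi44, Ifi35, Xaf1, Trim30a, Rtp4 and Tor3a. Ifi44, an interferon-induced gene, was at 5.90, 11.9 and 19.5 CPM in PBS, 181, 209.5 and 150 in IP and 78.9, 76.6 and 95.5 in IV. Its rise was 3.85 ± 0.36 in IP and the largest of the set in IV, 2.75 ± 0.35 (adjusted p = 4.13e-05 and 0.00193). The rises of the other 5 ran from 1.75 ± 0.25 for Rtp4, a chaperone of receptors, to 2.61 ± 0.22 for Trim30a, a tripartite motif protein, in IP, and from 1.46 ± 0.18 for Tor3a, an ATPase of the torsin family, to 1.78 ± 0.22 for Xaf1, a partner of an apoptosis inhibitor, in IV. Ifi35 rose by 1.97 ± 0.26 and 1.70 ± 0.26, and it shares 16.8% of its exonic bases with a gene on the opposite strand.

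**Figure D3:**
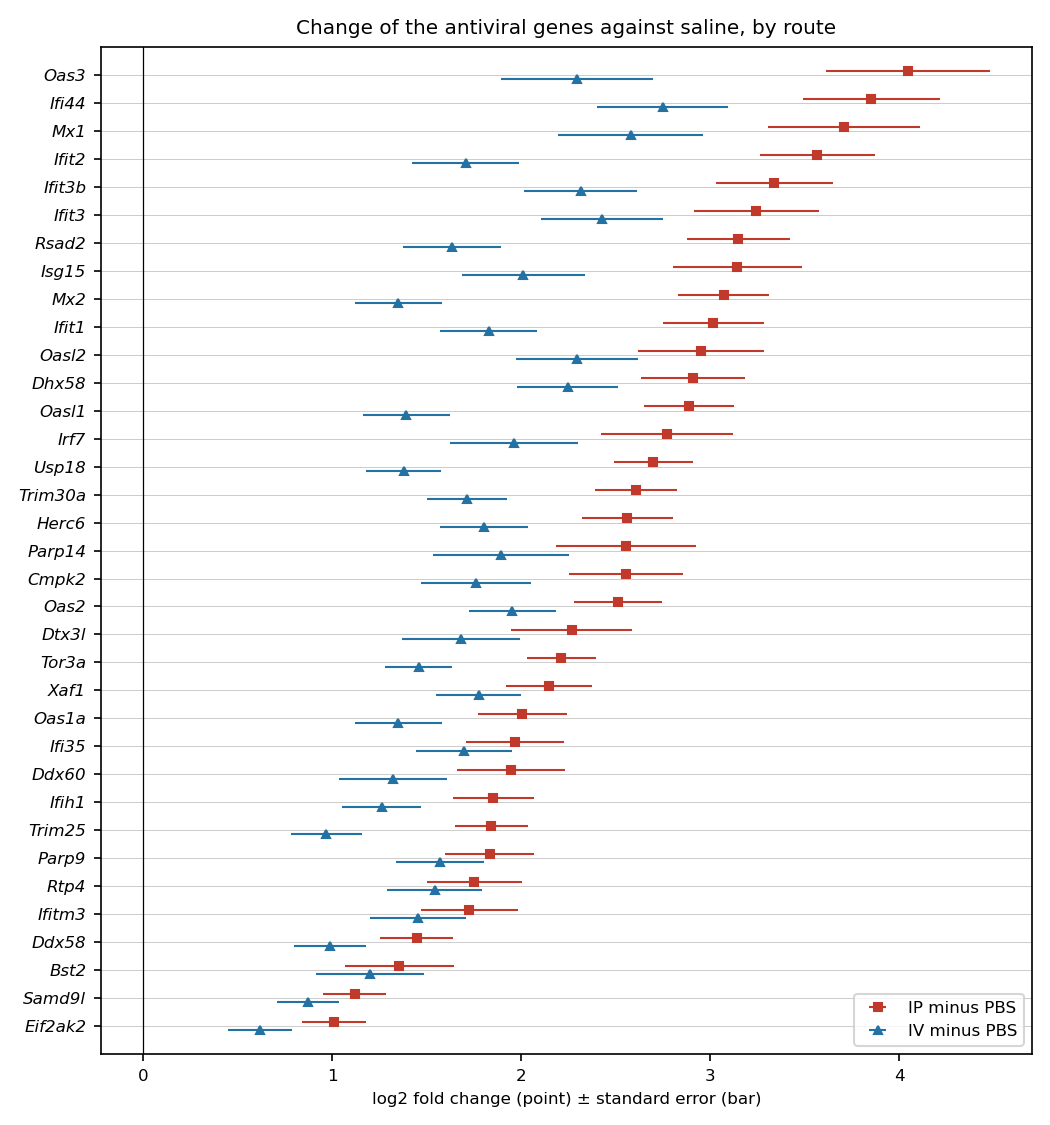
Log2 fold change against PBS of each member after IP (red squares) and IV (blue triangles) treatment, with the standard error as a bar, ordered by the IP change. The changes run from 1.01 to 4.05 in IP and from 0.62 to 2.75 in IV, and for each of the 35 genes the IP value is the larger; both comparisons use the same PBS libraries.

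The direct comparison of the routes is also the test of whether their changes against PBS differ. Of the 35 members 12 were higher in IP than in IV and none was lower, while 5.93% of all genes were higher and 4.47% lower. The other 23 did not pass the test, which does not show that their levels were equal. In simulated counts of the tested genes this test called 38.8% of 2-fold changes. Far fewer genes were changed there than were called in these data, and they were drawn at random from all tested genes. That share therefore need not hold for the members. Every IP library lay above every IV library for 30 members (17.9% of all genes). The exceptions were Bst2, Ifitm3, Ifi35, Rtp4 and Samd9l. The median difference was 0.76, from 0.16 for Bst2 to 1.86 for Ifit2, and the median over all genes tested was -0.02.

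The 12 genes were 5 of the RNA-directed effectors (Ifit1, Ifit2, Ifit3b, Oas3 and Oasl1), Mx2 and Rsad2, Isg15 and Usp18, and Trim25, Trim30a and Tor3a. The largest differences were those of Ifit2 (1.86 ± 0.28, adjusted p = 0.00299), Oas3 (1.75 ± 0.39, 0.0185) and Mx2 (1.72 ± 0.23, 0.00155). As a ratio, Mx2 had the widest gap of the 12, since its highest IV library was at 26.9 CPM and its lowest IP library at 69.7 CPM. Rsad2 differed by 1.51 ± 0.26 (adjusted p = 0.00499), Oasl1 by 1.497 ± 0.23 (0.00305) and Usp18 by 1.32 ± 0.20 (0.00283). These were followed by Ifit1 at 1.19 ± 0.25 (adjusted p = 0.0139) and Isg15 at 1.13 ± 0.32 (0.0475). Ifit3b at 1.03 ± 0.29 (0.0457), Trim30a at 0.89 ± 0.21 (0.0216), Trim25 at 0.87 ± 0.19 (0.015) and Tor3a at 0.76 ± 0.17 (0.0208) were the smallest of the 12.

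How many members passed this test depended on single libraries. It was 5 without IP 2, 6 without IP 3 or without IV 2, and 20 without PBS 1, a library of neither group compared. Without PBS 3 and IV 4 together it was 24, and with IV 4 alone left out it was 12, of which 9 were called in both fits. In that fit Isg15, Ifit3b and Oas3 were lost (adjusted p = 0.104, 0.109 and 0.0636), and Ddx58, Ifih1 and Herc6 were gained (0.0376, 0.0446 and 0.0205). Ifit2, Mx2, Oasl1, Rsad2 and Usp18 were called under all 19 alternatives. Isg15 was called under 6 of the 19 (adjusted p from 0.00402 to 0.148) and Ifit3b under 7 (0.00348 to 0.147), so that both sit at the threshold. Oas3 was called under 13 (0.000144 to 0.172) and lost on leaving out any single IP or IV library other than IP 4. Of the others, Trim30a was called under 14, Tor3a under 15, Ifit1 under 16 and Trim25 under 18. Ifi44 (1.10 ± 0.33, adjusted p = 0.0572), Herc6 (0.76 ± 0.23, 0.0601) and Mx1 (1.13 ± 0.36, 0.0759) lay just outside it. Not all members of a family passed: Ifit3 differed by 0.82 ± 0.31 (adjusted p = 0.122) and Oas1a and Oas2 by 0.66 ± 0.23 and 0.56 ± 0.22 (adjusted p = 0.0963 and 0.142), and no test between these genes was made. At the other end, Bst2 differed by 0.16 ± 0.28 (adjusted p = 0.783), Rtp4 by 0.21 ± 0.25 (0.656) and Ifitm3 by 0.27 ± 0.25 (0.555).

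**Figure D4:**
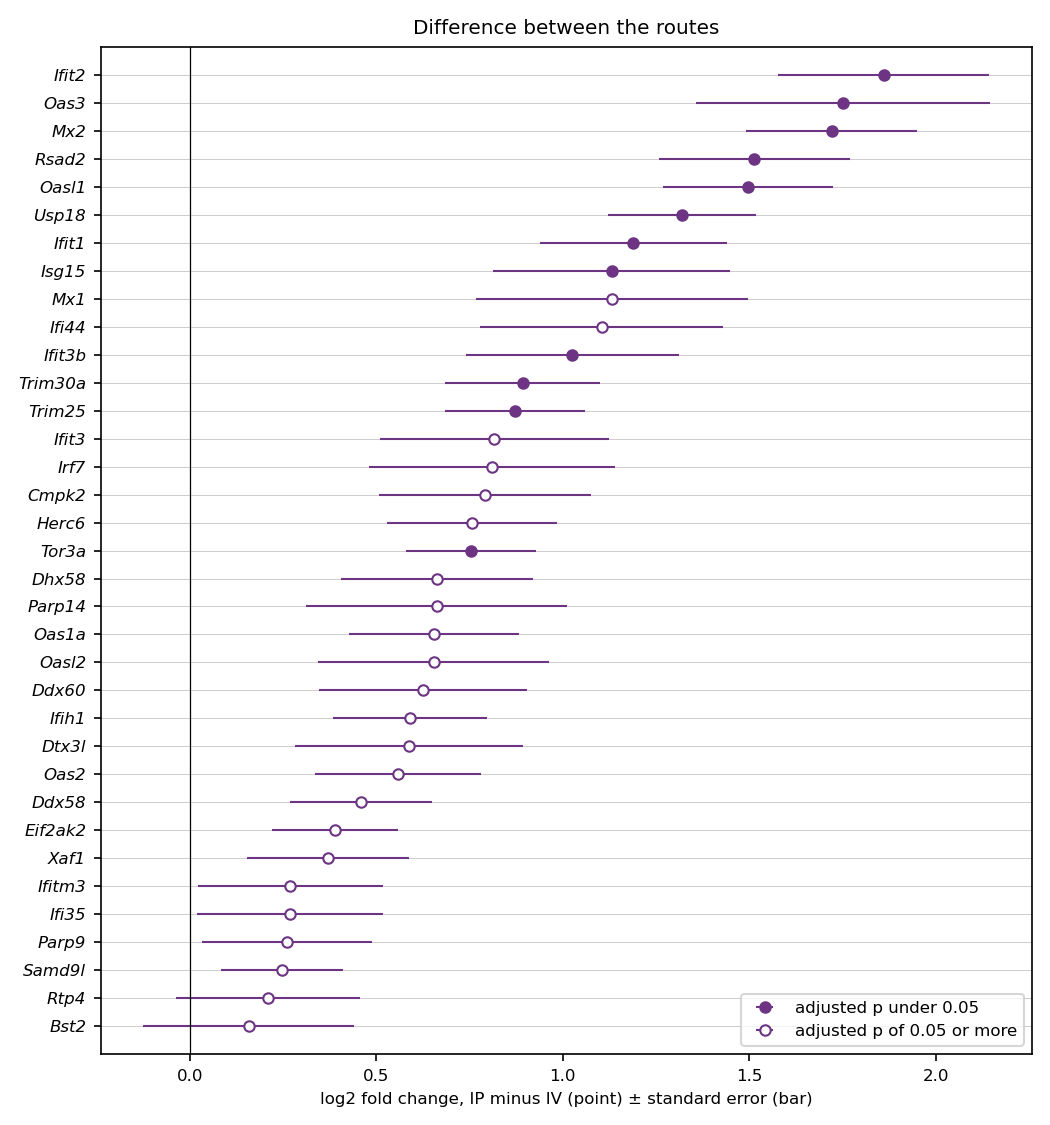
Difference between the routes, as the log2 fold change of IP minus IV with its standard error, for each member, ordered by size. Filled points mark the 12 genes with an adjusted p under 0.05, and the values run from 0.16 for Bst2 to 1.86 for Ifit2.

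Members were also set side by side by their promoter letters, as a description without a test. The 14 members with an ISRE match had a median change of 2.31 in IP and 1.55 in IV, and the 12 with a window and no match had 2.56 and 1.73. A missing match means only that the exact letters were absent from the window, so a variant or more distant element would be missed. In the difference between the routes the medians were 0.74 and 0.77. Across all tested genes with a window, those with an ISRE match rose in IP in 187 of 474 cases (39.5%) and those without in 18.6%, and in IV in 31.2% and 9.43%. Of the members, 20 lie in 8 groups of neighbours within 1 Mb of each other. The Ifit group of chromosome 19 (Ifit2, Ifit3, Ifit3b and Ifit1) changed by 3.02 to 3.57 in IP and 1.71 to 2.43 in IV. Between the routes it differed by 0.817 to 1.86. Oas2, Oas3 and Oas1a on chromosome 5 changed by 2.01 to 4.05 in IP and 1.35 to 2.29 in IV, and differed by 0.559 to 1.75.

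The interferons themselves were mostly below detection. Of 21 listed interferon ligand genes, 12 had no count in any library, among them 11 of the 14 interferon-alpha genes, and the 14 together had 6 counts over all 9 libraries. A count of 0 allows a level of up to 0.407 CPM in the shallowest library and 0.0672 CPM in the deepest, where 3 counts are taken as the limit and counting error alone is covered. Ifnb1, the interferon-beta gene, had no count in the 104990181 of the PBS group, 27 counts over the IP group and 3 over the IV group. Against a limit of 3 counts over the PBS group, the pooled counts were 10.6-fold higher in IP. In IV the 3 counts equalled that limit. The ratio of 1.35 there is only that of the group totals (104990181 in PBS and 77769890 in IV) and does not show a higher level. These ratios leave out the counting error of the IP and IV counts and the spread between mice. No test was made, as Ifnb1 did not pass the filter. Ifng, the interferon-gamma gene, was the only ligand tested. It was at 0.0819, 1.07 and 1.32 CPM in PBS, 826, 748 and 570.5 in IP and 11.3, 16.3 and 12.4 in IV. It rose by 9.74 ± 0.73 in IP (adjusted p = 2.73e-05) and 3.98 ± 0.60 in IV (adjusted p = 0.00362), and IP was above IV by 5.75 ± 0.61 (adjusted p = 0.000824). Which interferon the members followed was not tested.

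Of 6 receptor genes, Ifnar2 alone rose in IP (1.05 ± 0.13, adjusted p = 0.000148) and in IV (0.66 ± 0.13, adjusted p = 0.00803). Its partner Ifnar1 changed by -0.23 ± 0.12 (adjusted p = 0.152) and -0.06 ± 0.12 (0.755), neither past the threshold. Il10rb, a chain of the interferon-lambda and IL-10 receptors, fell in IP (-0.53 ± 0.15, adjusted p = 0.019), a call that was lost without PBS 1, IP 3 or IP 4. The interferon-gamma receptor genes Ifngr1 and Ifngr2 and the interferon-lambda receptor gene Ifnlr1 passed in no comparison (adjusted p of 0.0954 or more). Without IV 4, however, Ifnlr1 was called lower in IP (-0.55, adjusted p = 0.0222) and in IV (-0.70, adjusted p = 0.0226).

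Of 9 signal transducer genes 7 rose in IP and 6 in IV, and none fell. Stat2 was at 52.8, 70.1 and 131 CPM in PBS, 369.5, 401 and 384 in IP and 259, 305 and 309 in IV, with no overlap, and it rose by 2.19 ± 0.28 and 1.78 ± 0.28 (adjusted p = 0.000207 and 0.00333). Irf9 rose by 0.62 ± 0.13 and 0.52 ± 0.13, and Jak2, a kinase of the interferon-gamma receptor, by 1.09 ± 0.15 and 0.59 ± 0.15. The IV calls of Irf9 and Jak2 (adjusted p = 0.022 and 0.024) were lost without PBS 1, PBS 2 or IV 2, and that of Irf1 without PBS 2. Tyk2 rose in IP (0.57 ± 0.16, adjusted p = 0.0179), a call lost under 6 of the 19 alternatives, and changed by 0.48 ± 0.16 in IV (adjusted p = 0.0651). Among the interferon regulatory factors, Irf1 rose by 3.41 ± 0.49 and 2.46 ± 0.47 (adjusted p = 0.00817 in IV), Irf8 by 2.77 ± 0.32 and 2.09 ± 0.31, and Irf5 by 2.68 ± 0.23 and 1.58 ± 0.22. Irf5 was the only transducer higher in IP than in IV (1.11 ± 0.22, adjusted p = 0.0111). Jak1 and Irf3 passed in no comparison (adjusted p of 0.0676 or more). Without IV 4, Jak1 was called higher in IP against PBS (adjusted p = 0.0197), as in 5 of the 19 alternatives in all, Irf3 higher in IV against PBS (0.024) and Jak2 higher in IP than in IV (0.00738).

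**Figure D5:**
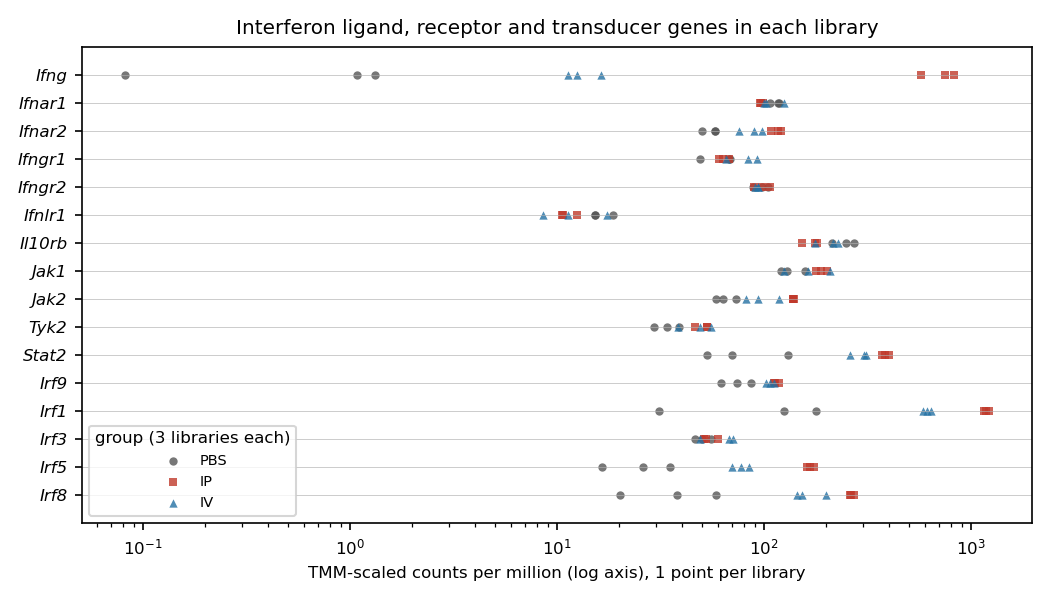
Level of the interferon-gamma gene, 6 interferon receptor genes and 9 signal transducer genes in each library, as TMM-scaled CPM on a log axis, with 1 point per library. Ifng ranges from 0.0819 CPM in a PBS library to 826 CPM in an IP library, while the points of Ifngr2 and Irf3 overlap between the groups.

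Other parts of the pathway were read from lists set out beside the members. Of 18 nucleic acid sensors and adaptors outside the set 13 rose in IP, 11 in IV and 4 more in IP than in IV, and none fell. Sting1, the adaptor of cytosolic DNA sensing, rose by 1.80 ± 0.14 and 1.24 ± 0.14, and Myd88, the adaptor of Toll-like receptors, by 2.19 ± 0.18 and 1.41 ± 0.18. Unc93b1, which carries nucleic acid-sensing Toll-like receptors to endosomes, rose by 1.65 ± 0.23 and 1.48 ± 0.23, and Nod1, a sensor of bacterial cell wall, by 2.74 ± 0.28 and 2.10 ± 0.27. Of 11 feedback inhibitors 8 rose in IP and 4 in IV. Socs1, which blocks JAK kinases, was at 2.13, 6.18 and 13.3 CPM in PBS, 188, 183 and 157 in IP and 69.9, 58.7 and 50.1 in IV, a rise of 4.59 ± 0.55 and 3.03 ± 0.52. Socs3 and Cish, from the same family, were higher in IP than in IV by 1.84 ± 0.17 and 1.66 ± 0.19 (adjusted p = 0.00031 and 0.000809). The phosphatase gene Ptpn6 rose by 1.19 ± 0.15 and 0.96 ± 0.15.

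Of 68 other interferon-stimulated genes 64 were tested, and 59 rose in IP, 53 in IV and 12 more in IP than in IV. Their medians were 2.14, 1.64 and 0.46, against 2.55, 1.70 and 0.76 for the members. Isg20, an RNA-cutting exonuclease, rose by 4.02 ± 0.36 and 2.68 ± 0.34, Phf11d by 3.16 ± 0.25 and 2.27 ± 0.24, Nampt, an enzyme of NAD synthesis, by 2.10 ± 0.16 and 1.19 ± 0.16, and Trim30d, whose reads may be split with Trim30a and other copies, by 2.77 ± 0.22 and 1.74 ± 0.21. Ifi27 went the other way: it was at 397, 571 and 376 CPM in PBS, 265, 291 and 297 in IP and 600, 444 and 397 in IV. It fell in IP (-0.66 ± 0.20, adjusted p = 0.0267) and was lower in IP than in IV (-0.76 ± 0.20, adjusted p = 0.0366), calls that were each lost without IP 2, IP 3 or IP 4.

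Of 22 genes driven mainly by interferon-gamma 22 rose in IP, 21 in IV and 3 more in IP than in IV. Their medians were 3.71 and 3.22 against PBS, above those of the members, and 0.38 between the routes, below that of the members. Psmb8, a subunit of the immunoproteasome, rose by 2.64 ± 0.34 and 2.29 ± 0.34, with a difference of 0.34 ± 0.32 between the routes (adjusted p = 0.569). Cd274, which codes for PD-L1, rose by 4.01 ± 0.42 and 2.62 ± 0.39, and Ido1, an enzyme that breaks down tryptophan, by 5.62 ± 0.50 and 3.74 ± 0.49. Ido1 was low, at up to 0.468 CPM in PBS. No test was made between these lists and the members.

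Markers of some immune cells moved with the antiviral genes and those of others did not. In bulk tissue more cells of a type and more RNA per cell cannot be told apart. Of 7 monocyte markers 6 rose in IP, 4 in IV and 1 more in IP than in IV, and their summed level was 126 to 293 CPM in PBS, 1134 to 1226 in IP and 579 to 875 in IV. Like the members, they were highest in IP. Of 7 neutrophil markers 7 rose in IP, 2 in IV and 1 more in IP than in IV, with summed levels of 10.4 to 22.2, 132 to 173 and 29.3 to 184 CPM, and Ly6g was at 0 in at least 1 library. Of 12 T cell markers 10 rose in IP, 9 rose in IV and 1 was lower in IP than in IV. Their summed level was 54.9 to 136 CPM in PBS, 304 to 349 in IP and 149 to 390.2 in IV. Of 9 macrophage markers 5 rose and 3 fell in IP, 4 rose in IV and 1 was lower in IP than in IV, with levels of 633 to 1078, 1419 to 1555 and 1513 to 1893 CPM. Of 6 NK cell markers 2 rose in IV and 1 was lower in IP than in IV, with levels of 8.82 to 26.1, 13.4 to 15.4 and 20.2 to 64.7 CPM. Among 7 conventional dendritic cell markers 2 rose and 1 fell in IP, 3 rose in IV and none was called between the routes. Plasmacytoid dendritic cells are known as strong producers of type I interferon. Of their 8 markers 1 rose in IP and 3 in IV, and 3 were lower in IP than in IV, with levels of 71.4 to 78.7, 88.7 to 416 and 116 to 498 CPM. The high sums of IP 4 and IV 1 were largely of 1 marker, Klk1 (332 and 409 CPM, and 85.5 in IV 2), and these are also the libraries with the most acinar transcripts, while the defining marker Siglech was at 1.02 to 9.07 CPM in all libraries. Of 8 B cell markers 2 fell in IP and all 8 rose in IV. Their levels were 58.7 to 71.1 CPM in PBS, 42.1 to 68.8 in IP and 137 to 510.2 in IV. All 8 were lower in IP than in IV, while no member was called lower. Among 3 tested plasma cell markers 1 rose in IP, 2 rose and 1 fell in IV, and 1 was higher in IP than in IV. Of 7 melanoma markers 5 fell in IP, 3 fell in IV and 2 were lower in IP than in IV, with levels of 25236 to 28131, 13441 to 15141 and 18041 to 23385 CPM. The summed level of 13 pancreatic acinar markers reached 19678 CPM in IP 4 and 26690.1 in IV 1, and the counts of members called were the same when these genes were removed before scaling. Mitochondrial transcripts made up 2.26% to 3.09% of counts in PBS, 1.71% to 1.90% in IP and 2.15% to 2.25% in IV. What part these differences had in the members' changes was not tested.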

How the data were processed

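Libraries were made from poly(A) RNA of 9 omenta by a strand-keeping method and read from both ends, per the labels' protocols. The submitters' processing notes name STAR 2.7.9, featureCounts, limma and mm39 without saying what each was for. The sources used here do not give the strand setting of the counting or the annotation release. The authors deposited whole-number counts of 55359 genes, not normalized, which were used as they are. The authors also deposited log2 CPM for 18833 of the genes. Those values equalled log2((count + 0.5) / (total + 1) × 1e+06) to within 5.0e-14 and served as an alternative. The number of columns without a sample was 0.

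Symbols and exon lengths were taken from GENCODE M21 (GRCm38), which names 52083 of the identifiers, and Sting1 was matched under its older symbol. Promoter windows come from RefSeq on GRCm38.p6. Counts were fitted with edgeR 4.0.16 in R 4.3.3: filterByExpr left 17123 genes, libraries were scaled by TMM, and all 9 entered 1 robust quasi-likelihood fit on the 3 groups without covariates. Tests were two-sided, with Benjamini-Hochberg adjustment over all genes tested and a threshold of 0.05. Standard errors were approximated as |log2 fold change| / sqrt(F). The scripts were tested on simulated counts with known answers. The changed genes were drawn at random from all tested genes and were far fewer than the genes called in the data, so the shares need not hold for the members. Of 2-fold changes 47.8% were called for IP against PBS, 28.4% for IV against PBS and 38.8% for IP against IV. For 4-fold changes these shares were 77.3%, 81.8% and 78.8%, and for 1.5-fold changes 4.48%, 1.49% and 2.99%. False calls were 5 of 91, 3 of 77 and 5 of 85.

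Groups follow the treatment in the titles and library numbers the mouse numbers there. Named are the 35 members, the tested ligand, receptor and transducer genes, up to 4 genes of each further pathway list with the smallest p in IP against PBS, and genes that went against their list. A transducer gene is not reported here, though it stays in the fit. The members and the lists were chosen with earlier results of these data known. The 19 alternatives were DESeq2 1.42.0 (its size factors, and its Wald test), limma 3.58.1 (voom, and the deposited log2 CPM), no filter, a filter of 5 CPM in 3 libraries, only the groups compared, acinar genes removed before scaling, a replicate block, the loss of each library in turn, and the loss of PBS 3 with IV 4. Applying them to the named genes outside the set was decided after the data were seen. Near-identical copies (Ifit3 and Ifit3b, the Oas1, interferon-alpha and Trim30 genes) can share reads that counting may have split. The exons of 11 members share bases with another gene, over 10% of them in 3 (Ifi35, Rtp4 and Herc6).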

Additional observations from a re-analysis of the deposited data

Results flagged for a closer look

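The change after T cells with IL-12 mRNA, against PBS, differed between the routes for 12 of the 35 members, all with the larger rise in IP. This is by the test of IP against IV itself. All 19 alternatives kept the calls of Ifit2, Mx2, Oasl1, Rsad2 and Usp18, while 6 kept that of Isg15 and 7 that of Ifit3b. On the log2 scale the differences (IP minus IV) were 1.86 for Ifit2, 1.75 for Oas3, 1.72 for Mx2, 1.51 for Rsad2, 1.497 for Oasl1 and 1.32 for Usp18. They were 1.19 for Ifit1, 1.13 for Isg15, 1.03 for Ifit3b, 0.89 for Trim30a, 0.87 for Trim25 and 0.76 for Tor3a.

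Outside the set, only genes named by the rule above are given here, and further genes of the lists were called. The same test found the routes to differ for Ifng by 5.75 and for Irf5 by 1.11. The difference was 0.78 and 0.56 for the adaptors Myd88 and Sting1, and 1.84 and 1.66 for the feedback inhibitors Socs3 and Cish. Among other interferon-stimulated genes the difference was 1.34 for Isg20, 1.04 for Trim30d, 0.90 for Phf11d and 0.92 for Nampt, and -0.76 for Ifi27, which was lower in IP than in IV. Of the genes driven mainly by interferon-gamma, Ido1 differed by 1.89 and Cd274 by 1.39. Of the 19 alternatives, 11 kept the call of Phf11d, 12 those of Isg20 and Sting1, 13 that of Ifi27, 16 those of Myd88 and Ido1, 17 that of Trim30d and 18 that of Irf5, and all kept those of Ifng, Socs3, Cish and Nampt. The calls of Isg20, Phf11d and Cd274 were lost without IV 4. The Cd274 call was held under 8 of the 19 alternatives, and it was lost on leaving out any single library other than PBS 1 and PBS 3.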

How the results depend on the processing

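Every member kept its direction in each comparison under all 19 alternatives. Members higher in IP than in PBS were 35 under each. Members higher in IV than in PBS were 30 (no filter) to 35, and with 1 library left out 33 to 35. Members higher in IP than in IV were 12 in the fit reported, 23 with only the groups compared, 24 without PBS 3 and IV 4, and 5 to 20 with 1 library left out, so this count is the least settled. Over all genes, those lower in IP than in PBS were 2429, and 1602 to 3119 with libraries left out. The members' median in that comparison was 2.32 to 2.88. In IV against PBS the genes higher were 1784, 935 with only the groups compared and 770 to 2332 with 1 library left out. Those lower were 969, 1766 by DESeq2, 275 with only the groups compared, 2297 without PBS 3 and IV 4 and 210 to 2248 with 1 library left out. In IP against IV the genes higher were 1015, 2064 without PBS 3 and IV 4 and 435 to 1709 with 1 library left out. Those lower were 765, 1251 by DESeq2, 1422 without PBS 3 and IV 4 and 238 to 1164 with 1 library left out. The cause was not tested.

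With the mouse number as a replicate block, members higher were 35 in IP and 35 in IV against PBS, and 8 in IP against IV. All genes lower in IV than in PBS were then 571, and 626 were higher and 508 lower in IP than in IV. The numbers are those of the titles. In the IP and IV groups they differ from the descriptions, which number the mice of each group 1 to 3. Over the 5000 most variable genes, deviations from the group means correlated between same-numbered libraries at -0.478 (IP 4 and IV 4) to 0.103 (PBS 1 and IV 1). Such correlations cannot decide whether the numbers pair the mice.

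Among named genes outside the set, 21 values that had passed no threshold changed sign. In IP against PBS, Ifngr2 was at -0.0132 with DESeq2 size factors, -0.0127 by its Wald test, -0.0415 without the filter, -0.153 on the deposited log2 CPM and -0.0743 to 0.0792 with libraries left out. Ifngr1 was at -0.00875 without the filter, -0.0989 on the log2 CPM, -0.0816 with the replicate block and -0.0918 to 0.1375 with libraries left out, and Irf3 at -0.0661 on the log2 CPM. In IV against PBS, Ifi27 was at -0.0981 to 0.2745 with libraries left out. In IP against IV, Ifngr2 was at -0.018 on the log2 CPM, and Irf9 at -0.0171, Tyk2 at -0.00586 and Unc93b1 at -0.0466 with the block. With libraries left out, Tyk2 was at -0.0406 to 0.2446 and Ifnlr1 at -0.3641 to 0.1696. The cause was not tested. The smallest library, IV 2, held 7379798 counts.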
